A study of Homo sapiens with 183 samples.

Results

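p53 is a transcription factor that cells activate when DNA is damaged or when synthesis of ribosomes, nucleotides or RNA is disturbed. It binds DNA at pairs of short half-sites near its target genes and raises a set of RNAs that stop the cell cycle, repair DNA, restrain p53 itself or start cell death. The best known target is CDKN1A, which encodes the cyclin-dependent kinase inhibitor p21, and MDM2 encodes the ubiquitin ligase that degrades p53 in a feedback loop.

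This account follows 33 p53 target genes, named one by one, through bulk RNA-seq of human cancer lines. They are 33 of the 19875 gene names in each of 8 tables, and all 33 were found. By role they comprise genes of cell cycle arrest (CDKN1A, BTG2, GADD45A, PLK2, PLK3), of feedback on p53 (MDM2, PPM1D, CCNG1), of DNA repair and nucleotide supply (XPC, DDB2, POLH, RRM2B), and death receptor genes (FAS, TNFRSF10B, TNFRSF10C). The others act in cell death (APAF1, AEN, PHLDA3, TRIAP1, TP53INP1), in redox control and metabolism (TP53I3, SESN1, TIGAR, FDXR, SPATA18), as secreted factors (GDF15, KITLG), in RNA stability or the ribosome (ZMAT3, RPS27L), or in roles not grouped here (CYFIP2, CMBL, ABHD4, SUSD6).

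The series asked how the transcription factor KLF5 and the ATPases RUVBL1 and RUVBL2 act in pancreatic cancer, and it holds 183 libraries from 9 lines. Cells of 5 pancreatic lines that stably expressed Cas9 received a guide RNA against KLF5, RUVBL1, RUVBL2, CHD4, SERPINB5, CDK1 or RPA3 (sgRpa3 in the labels), or a control guide against ROSA26 (sgRosa in the labels), and were collected on day 5. A-375 (A375 in the labels), T84, H1048 and RH30 were parental cells given CB-6644 (CB6644 in the labels), an inhibitor of the RUVBL1 and RUVBL2 complex, or the solvent DMSO for 24 h, with 4 libraries in each group. AsPC-1 and T3M-4 were given the same agents for 24 h after lentiviral delivery of an empty vector, of RUVBL1 A62T or of RUVBL2 dF109, which are mutant forms tested as resistant to the drug. Each of those vectors had 3 CB-6644 libraries and 1 DMSO library per line, so the 3 DMSO libraries of a line, 1 per vector, served together as its control.

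Knockout groups held 2 to 6 libraries. In AsPC-1, experiment 1 had 6 sgKLF5 and 2 sgRosa libraries, experiment 2 and the CHD4 experiment had 4 in every group, and experiment 3 had 4 in every group except 2 each for sgCDK1 and sgRPA3. SUIT-2 had 4 sgKLF5 and 4 sgRosa libraries. Experiment 1 of T3M-4 and of BxPC-3 had 4 sgKLF5, 2 sgRosa and 2 sgRPA3 libraries. Experiment 2 of those lines had 4 in each group, except 3 for sgRUVBL1 in T3M-4, 3 for sgRUVBL2 in BxPC-3, and 2 each for sgCDK1 and sgRPA3. CFPAC-1 had 4 sgRosa, 4 sgRUVBL1 and 3 sgKLF5 libraries and 2 each for sgRUVBL2, sgCDK1 and sgRPA3. For KLF5, RUVBL1, RUVBL2, SERPINB5 and ROSA26 the study used 2 independent guides each, so these groups can mix cells infected with different guides, and the spread within a group then holds guide differences too. Which guide a library carries is not given in the sources used here, and the knockout cells were bulk populations rather than clones.

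Values are TPM, a length-corrected abundance that sums to 1e+06 in each library, so each level is a share of the RNA in its library. Read depth is unknown from these tables, and between 11292 and 14024 genes reached 1 TPM in a library. The labelled identity of the 4 parental lines was visible in 1 marker of each, though not in every listed marker. Mean DMSO levels were 235 TPM for SOX10 in A-375, 90.5 for CDX2 in T84, 476 for POU2F3 in H1048 and 736 for MYOD1 in RH30. A-375 had little of the pigment genes, with TYR at 0, DCT at 0.04, PMEL at 0.91 and MLANA at 1.23 TPM. MITF was at 17.3 TPM in A-375, below the 24.5 TPM of CFPAC-1 sgRosa. In H1048 the tuft-like marker AVIL was at 140 TPM but TRPM5 at 0.08 TPM. The mRNA of the targeted gene was lower in 15 of the 29 knockout comparisons. It was lower in 5 of 5 for RUVBL1, 4 of 4 for RUVBL2 and 1 of 1 for SERPINB5, but in 2 of 4 for CDK1, 2 of 6 for RPA3, 1 of 8 for KLF5 and 0 of 1 for CHD4 (log2 fold change 0.28). Cas9 cutting need not lower an mRNA, so the KLF5 and CHD4 groups are called libraries labelled sgKLF5 or sgCHD4.

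Differences are log2 fold changes of log2(TPM + 1) with their standard errors (SE) from limma, with p adjusted by Benjamini-Hochberg over all genes tested and a threshold of 0.05. A gene is called higher or lower when it passed that threshold. The study describes the knockout replicates as biological in every knockout line but CFPAC-1. For CFPAC-1 and the CB-6644 experiments the sources used here do not say that replicates were separate cultures, so the spread behind those p-values may be technical. In bulk RNA a large change in few cells and a small change in all cells cannot be told apart.

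RefSeq promoter windows, which run from shortly before to just after a transcript start, were found for 26 of the 33 genes (38 windows). GADD45A, RRM2B, TNFRSF10B, TNFRSF10C, PHLDA3, TP53INP1 and CMBL were not matched. The windows were searched for the p53 consensus half-site, a palindrome of 10 bases that therefore reads alike on both strands. A perfect half-site lay in 8 of the 38 windows and in 6.63% of all 35114 RefSeq windows. A pair of half-sites at most 1 base apart, with at most 2 mismatches in all, lay in 5 of the 38 windows, of 4 genes, and in 0.533% of all windows. These matches are descriptions of letters, and binding was not measured here.

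All 4 genes with a paired match are shown. As described below, MDM2, DDB2 and FAS rose in A-375, and AEN was not called there as deposited. Sequences are GRCh38, plus strand, 5′ to 3′, with the match in capitals. The MDM2 match at chr12:68808923-68808942 lies in an intron, 94 bases before a transcript start, with 2 mismatches. The DDB2 match at chr11:47214979-47214999 lies in the 5′ untranslated part of an exon, with 0 mismatches and a spacer of 1 base. The FAS match at chr10:88991309-88991328 starts at position -122 from the transcript start of its window, overlaps an exon of another transcript and has 2 mismatches. The AEN match at chr15:88621306-88621325 lies 34 bases before its transcript start, with 2 mismatches.
MDM2: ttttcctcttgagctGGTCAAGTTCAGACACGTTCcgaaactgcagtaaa
DDB2: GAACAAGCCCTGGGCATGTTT
FAS: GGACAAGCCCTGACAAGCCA
AEN: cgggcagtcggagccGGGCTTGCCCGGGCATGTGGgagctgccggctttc

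In A-375, CB-6644 raised nearly the whole set. Of the 32 genes that could be tested, 29 were higher and 1 was lower, while 51.5% of all genes tested were higher and 29.5% lower. The median log2 fold change was 1.28 over the 32 genes and 0.16 over all genes. In the 29 genes that rose, each of the 4 CB-6644 libraries lay above each of the 4 DMSO libraries. Such separation was not counted over all genes, so it is not read as a trait of the set. Many other genes also moved in these tight replicates, and scaling each library to the median of gene ratios lowered the median of all genes by 0.21. With that scaling 28 of the 32 were higher and 3 lower, their median was 1.07, and 36.4% of all genes were higher and 44.2% lower.

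**Figure D1:**
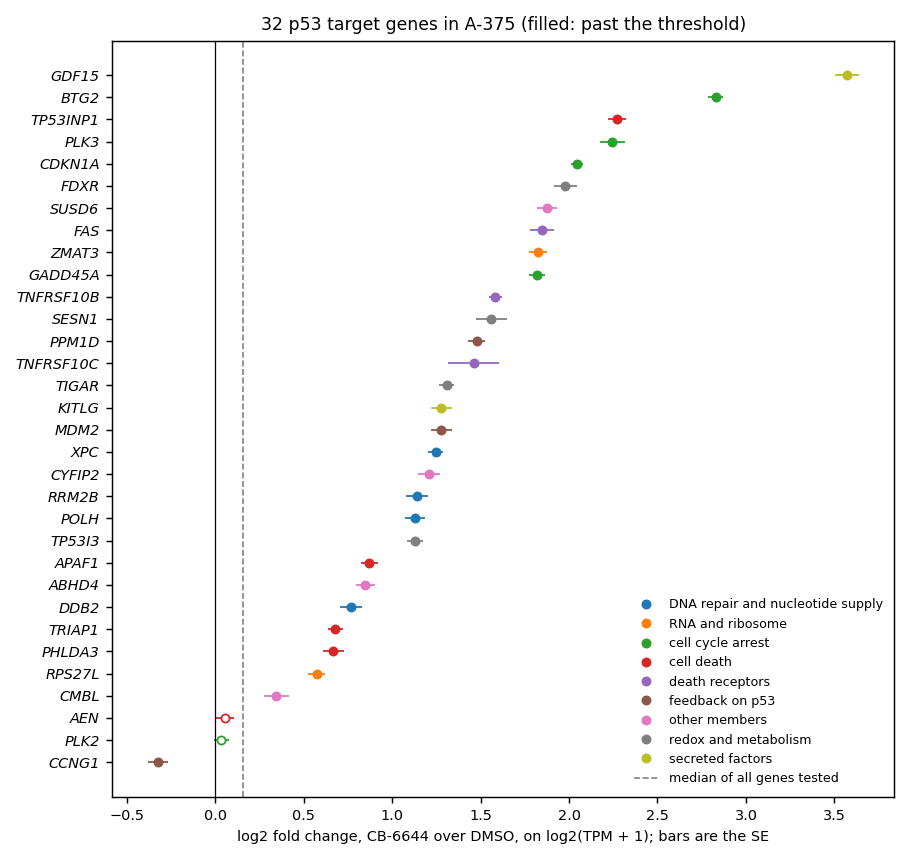
Log2 fold change of CB-6644 over DMSO in A-375, on log2(TPM + 1), for the 32 p53 target genes tested (points, with SE as bars, 4 libraries a group), coloured by role. The dashed line is the median of all genes tested, 0.16. GDF15 lies farthest right at 3.57, CCNG1 is the 1 gene lower, and AEN and PLK2 (open points) lie near 0.

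Of the 5 cell cycle arrest genes, 4 rose, with a median log2 fold change of 2.04. CDKN1A (chr6:36676463-36687332) was at 447.9, 452.3, 445.0 and 442.7 TPM in the CB-6644 libraries and at 107.3, 109.7, 105.7 and 108.3 TPM in the DMSO libraries. The groups did not overlap, and each was narrow. The log2 fold change was 2.04 ± 0.03 (SE, n = 4 and 4, adjusted p = 1.31e-29, limma). BTG2 (chr1:203305519-203309602), an antiproliferative protein that recruits mRNA deadenylases, was at 80.2, 84.2, 83.1 and 81.6 TPM against 10.9, 10.2, 11.8 and 10.0 TPM. Every treated library was far above every control, a log2 fold change of 2.83 ± 0.04 with the lowest adjusted p of the set (5.22e-31, limma). GADD45A, a stress protein that binds PCNA and inhibits CDK1, was at 179.6, 176.1, 197.9 and 179.9 TPM against 54.7, 53.1, 49.3 and 48.0 TPM. The kinase gene PLK3 rose by a log2 fold change of 2.25 ± 0.07, from a mean of 10.4 to 53.2 TPM. Its relative PLK2, in contrast, was at 129.9 to 140.7 TPM with CB-6644 and 124.0 to 142.6 TPM with DMSO, groups that overlapped (0.03 ± 0.04, adjusted p = 0.473, limma). With the median-of-ratios scaling PLK2 was lower, at -0.19 ± 0.05.

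The feedback genes divided. MDM2 (chr12:68808172-68850686) was at 99.6, 102.5, 101.7 and 99.8 TPM in the CB-6644 libraries and at 39.7, 41.6, 40.7 and 42.0 TPM in the DMSO libraries. All treated libraries stood well apart from the controls, a log2 fold change of 1.28 ± 0.06 (n = 4 and 4, adjusted p = 1.47e-18, limma). PPM1D, a phosphatase that switches off p53 and its upstream kinases, rose by 1.48 ± 0.05 on the log2 scale, from 13.1 to 38.2 TPM. CCNG1, the gene of cyclin G1, fell by 0.32 on the log2 scale (SE 0.06), with 115.1 to 131.0 TPM in the CB-6644 libraries and 138.4 to 165.9 TPM in the DMSO libraries. It was the only one of the 32 genes tested in A-375 that was lower as deposited. After scaling AEN and PLK2 were lower too, and CMBL was no longer higher.

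Genes of DNA repair and of nucleotide supply all rose, 4 of 4. XPC, the sensor of distorted DNA in nucleotide excision repair, went from a mean of 36.7 to 88.2 TPM, a log2 fold change of 1.25 ± 0.04. POLH, a polymerase that copies past ultraviolet lesions, changed by 1.13 ± 0.06 and RRM2B, the p53-inducible subunit of ribonucleotide reductase, by 1.14 ± 0.06. DDB2, which recognises ultraviolet damage in chromatin and whose window held the perfect paired match, was at 109.9 to 115.1 TPM against 63.6 to 67.7 TPM, a smaller log2 fold change of 0.77 ± 0.06.

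The death receptor genes, which encode cell surface receptors for FAS ligand and TRAIL, rose in 3 of 3 cases. FAS was at 52.5, 52.7, 50.2 and 50.4 TPM with CB-6644 and at 13.9, 13.6, 13.6 and 13.2 TPM with DMSO. The 2 groups were widely separated, with a log2 fold change of 1.85 ± 0.07. The TRAIL receptor gene TNFRSF10B was at 165.5, 168.8, 154.5 and 157.0 TPM against 51.7, 52.5, 54.1 and 54.4 TPM, a log2 fold change of 1.58 ± 0.04. TNFRSF10C, which encodes a decoy receptor without a death domain, rose from 2.42 to 8.38 TPM. TNFRSF10B and TNFRSF10C are related in sequence, and how their shared reads were divided is not given in the sources used here.

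Genes of the cell death group inside the cell rose less, with a median of 0.68 over 5 genes. TP53INP1, a stress protein of autophagy and cell death, was the exception, at 13.8 to 14.05 TPM with CB-6644 and 2.01, 1.89, 2.09 and 2.44 TPM with DMSO. Its log2 fold change was 2.27 ± 0.05. APAF1, the scaffold of the apoptosome, changed by 0.87 ± 0.05, TRIAP1 by 0.68 ± 0.04 and PHLDA3, an inhibitor of AKT, by 0.67 ± 0.06. AEN, an apoptosis-enhancing nuclease, was at 65.0 to 67.3 TPM against 59.6 to 67.0 TPM, which overlapped (0.05 ± 0.05, adjusted p = 0.354, limma). With scaling AEN was lower, at -0.17 ± 0.05.

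Of the 5 redox and metabolic genes, 4 were tested and all 4 rose. FDXR, which passes electrons in the mitochondrial steroid and iron-sulphur pathways, was at 87.8, 85.9, 93.2 and 89.5 TPM against 23.3, 23.8, 19.3 and 21.2 TPM. Its treated libraries lay entirely above its controls, with a log2 fold change of 1.98 ± 0.06. SESN1, a sestrin that restrains mTORC1, changed by 1.56 ± 0.09. TIGAR, which lowers fructose bisphosphate and slows glycolysis, changed by 1.31 ± 0.04, and the quinone oxidoreductase gene TP53I3 by 1.13 ± 0.04. SPATA18, a gene of mitochondrial quality control, averaged under 1 TPM and was not tested. It was at 0.33 to 0.46 TPM in the CB-6644 libraries and listed at 0 in the 4 DMSO libraries.

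GDF15, a secreted stress hormone of the TGF-β family, changed most of the 32 tested genes in A-375. GDF15 (chr19:18386158-18389176) was at 95.6, 101.4, 104.8 and 96.4 TPM in the CB-6644 libraries and at 7.80, 7.21, 7.06 and 7.80 TPM in the DMSO libraries. No treated library came near a control, and the log2 fold change was 3.57 ± 0.07 (adjusted p = 6.71e-28, limma). KITLG, the ligand of the receptor KIT, rose from 2.90 to 8.46 TPM, a log2 fold change of 1.28 ± 0.06.

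ZMAT3, an RNA-binding protein that acts on splicing and RNA stability, was at 26.8, 27.7, 25.4 and 26.8 TPM against 6.56, 6.96, 7.24 and 6.48 TPM. Its log2 fold change was 1.83 ± 0.05, while that of RPS27L, a ribosomal protein paralogue, was 0.57 ± 0.05. RPS27L is a near copy of RPS27, and how reads common to both were counted is not given. SUSD6 was at 20.6, 20.5, 19.98 and 20.9 TPM against 4.62, 4.96, 4.89 and 5.02 TPM, so it too had groups far apart (1.87 ± 0.06). CYFIP2 changed by 1.21 ± 0.06, ABHD4 by 0.85 ± 0.05 and CMBL by 0.34 ± 0.07.

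Among genes that act on p53 itself, changes in A-375 went both ways. KAT5, an acetyltransferase that modifies p53 and works in a complex with RUVBL1 and RUVBL2, was lower at -1.88, and the checkpoint kinase gene CHEK2 at -1.25. MDM4, the partner of MDM2, was at -0.61, and CDKN2A, whose alternative product ARF blocks MDM2, was at 1.15.

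Other known p53 targets outside the set of 33 mostly moved in the same direction in A-375. This list too was chosen with earlier results of these data known, so it is no independent check. Of 30 listed, 28 were tested, 25 were higher and 2 lower, beside 51.5% and 29.5% of all genes. Their median log2 fold change was 0.81 (22 higher, 3 lower and 0.64 with scaling). ATF3, a stress transcription factor that other pathways also induce, rose from 8.86 to 175 TPM (4.17). The ceramidase gene ACER2 changed by 3.07 and PMAIP1, which encodes the pro-apoptotic protein NOXA, by 2.33.

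Genes of cell division that are known to fall when p21 is active were lower in 11 and higher in 3 of 16, with a median of -0.29 in A-375. Of all genes 29.5% were lower and 51.5% higher. With scaling 13 of the 16 division genes were lower and 3 higher. Whether p21 lowered them was not tested. RRM2 was at -1.998, PLK1 at -1.61, CDC20 at -1.54 and CCNB1 at -1.12, whereas E2F1 was at 0.92. GDF15 and some other members also respond to the amino acid stress factor ATF4, whose targets are listed beside them. What raised GDF15 was not tested. Of the 9 ATF4 targets tested in A-375, 6 were lower and 3 higher, with a median of -0.69 (-0.91 with scaling). SLC7A11 was at -2.24 and CHAC1 at -1.79, and SESN2, which p53 also induces, was at 1.33.

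The 3 other parental lines received the same agent for the same 24 h. In T84, a colorectal line, 20 of the 29 genes tested were higher and 7 lower, where 50% of all genes were higher and 26.3% lower. In H1048, a small cell lung cancer line of the tuft cell-like subtype, 19 of 32 were higher and 9 lower, where 53.8% of all genes were higher and 23.8% lower. In RH30, an alveolar rhabdomyosarcoma line, 21 of 30 were higher and 6 lower, beside 50% and 26.8% of all genes. The median log2 fold change of the set was 0.45 in T84, 0.24 in H1048 and 0.48 in RH30, beside 0.13, 0.18 and 0.13 for all genes. With scaling the splits were 18 higher and 9 lower in T84 (31.8% and 44.1% of all genes), 14 and 10 in H1048 (34.1% and 40.9%), and 19 and 9 in RH30 (33.8% and 41.4%). As deposited, 69.0% of the genes tested rose in T84, 59.4% in H1048 and 70% in RH30, beside 90.6% in A-375. The share thus exceeded that of all genes in each line, least in H1048 and most in A-375, also with scaling.

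**Figure D2:**
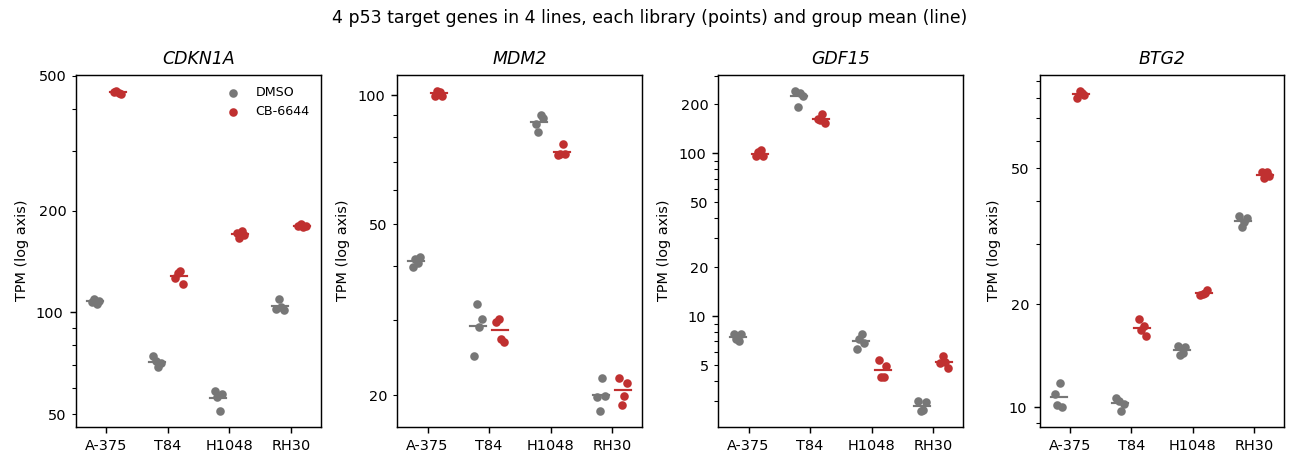
TPM on a log axis of CDKN1A, MDM2, GDF15 and BTG2 in A-375, T84, H1048 and RH30. Points are single libraries (4 a group, grey for DMSO and red for CB-6644) and lines are group means. CDKN1A and BTG2 were higher with CB-6644 in all 4 lines, while MDM2 and GDF15 separated upward most clearly in A-375, where MDM2 went from 41.0 to 100.9 and GDF15 from 7.47 to 99.5 TPM.

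CDKN1A was higher in all 4 parental lines. It was at 121.2 to 133.0 TPM in T84 with CB-6644 and 68.9 to 74.4 TPM with DMSO, a log2 fold change of 0.83 ± 0.03. In H1048 CDKN1A was at 165.4 to 174.4 TPM against 51.2 to 58.8 TPM, which is 1.59 ± 0.03. In RH30 CDKN1A was at 178.4 to 182.4 TPM against 101.7 to 109.6 TPM, which is 0.78 ± 0.03. The groups did not overlap in any of these lines, and the rise in H1048 came closest to the 2.04 of A-375. The difference between the CDKN1A responses of A-375 and H1048, tested as an interaction, was 0.45 ± 0.05 (adjusted p = 2.65e-09, limma).

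MDM2 did not follow CDKN1A. It was at 29.6, 30.1, 27.1 and 26.5 TPM in T84 with CB-6644 and 24.6, 32.7, 28.8 and 30.1 TPM with DMSO (-0.03 ± 0.06, adjusted p = 0.637, limma). In RH30 MDM2 was at 21.9, 18.9, 19.97 and 21.4 TPM against 19.8, 18.4, 22.0 and 19.9 TPM (0.04 ± 0.06, adjusted p = 0.591, limma). Both pairs of groups overlapped as deposited. With scaling MDM2 was lower in both lines, at -0.24 in T84 and -0.14 in RH30. In H1048 MDM2 was lower, at 72.7 to 76.9 TPM against 81.9 to 89.8 TPM (-0.22 ± 0.06). The A-375 response of MDM2 exceeded that of T84 by 1.31 ± 0.08, that of H1048 by 1.503 ± 0.08 and that of RH30 by 1.24 ± 0.08, all past the threshold.

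GDF15 moved in different directions among the lines. In T84, where its level was highest of the 4 lines, GDF15 was at 161.3, 159.8, 173.4 and 152.7 TPM with CB-6644 and 242.6, 193.5, 235.1 and 224.6 TPM with DMSO. It was lower there, by -0.46 ± 0.07. In H1048 GDF15 was at 4.21 to 5.36 TPM against 6.32 to 7.82 TPM, also lower (-0.51 ± 0.07). In RH30 GDF15 was at 4.79 to 5.70 TPM against a mean of 2.82 TPM, with no overlap, and was higher (0.70 ± 0.07). The A-375 response of GDF15 was larger by 4.03 ± 0.10 than that of T84, by 4.07 ± 0.10 than that of H1048 and by 2.87 ± 0.10 than that of RH30.

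BTG2 was higher in all 4 lines, at 0.68 ± 0.04 in T84, 0.53 ± 0.04 in H1048 and 0.44 ± 0.04 in RH30. GADD45A, XPC, DDB2, POLH, TNFRSF10B, PPM1D, TP53INP1, TIGAR, FDXR, ZMAT3, ABHD4 and SUSD6 also rose in all 4. Between 50% and 53.8% of all genes rose in each line, and the share that rose in all 4 was not counted. With scaling DDB2 and POLH in RH30, and GADD45A and TP53INP1 in H1048, were no longer past the threshold. ABHD4, a lipase of the N-acyl phospholipid pathway, was as high or higher elsewhere, at 1.07 ± 0.05 in T84, 0.83 ± 0.05 in H1048 and 1.26 ± 0.05 in RH30. CCNG1 was lower in all 4 lines, at -0.39 in T84, -0.51 in H1048 and -0.40 in RH30. AEN was lower in T84, H1048 and RH30, at -0.18, -0.33 and -0.61. Outside A-375, TP53INP1 changed most in RH30 (1.14 ± 0.05) and T84 (0.98 ± 0.05), and KITLG rose in RH30 (1.03 ± 0.06). In H1048, POLH rose by 0.93 ± 0.06 and PLK2 was lower at -0.81 ± 0.04.

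**Figure D3:**
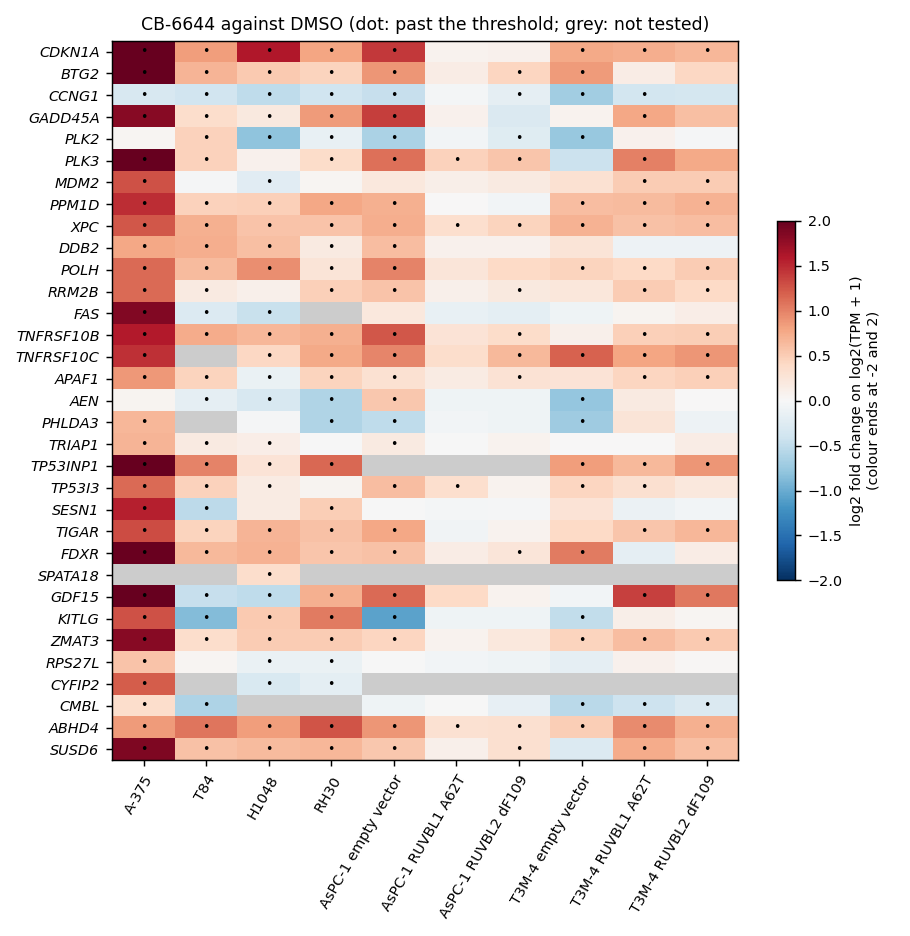
Log2 fold change of CB-6644 over DMSO on log2(TPM + 1) for the 33 p53 target genes (rows) in 4 parental lines and in AsPC-1 and T3M-4 with each vector (columns). Red is higher, blue is lower, dots mark genes past the threshold and grey marks genes not tested. A-375 is the column most uniformly red, with 29 of 32 tested genes higher.

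The interaction fit compared the A-375 response with each other line over 14250 genes. Here the minimum of 1 TPM was applied to the mean over all libraries of the 4 lines. All 32 genes thus entered, though 29 were tested within T84 and 30 within RH30. A gene near 0 TPM in a line can show little response there, so its higher response in A-375 says little about that line. Against T84, 28 of the 32 genes had a higher response in A-375 and 2 a lower one, beside 29.7% and 28.6% of all genes. Against H1048, 28 were higher and 0 lower, beside 27.6% and 29.4%. Against RH30, 29 were higher and 1 lower, beside 32% and 27.5%. The median difference of the set was 1.05 against T84, 0.98 against H1048 and 0.87 against RH30, beside 0.01, -0.01 and 0.03 for all genes. These comparisons share the A-375 libraries and are set side by side. With scaling the splits were 28 and 2, 28 and 0, and 28 and 1.

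BTG2 was among the largest differences in each fit, from 2.15 ± 0.06 against T84 to 2.39 ± 0.06 against RH30. FAS, which was lower in T84 (-0.27) and in H1048 (-0.45), had differences of 2.12 ± 0.10 and 2.301 ± 0.10 there. The PLK3 response was larger in A-375 by 2.17 ± 0.10 than in H1048 and by 1.88 ± 0.10 than in RH30. KITLG fell in T84 from 89.1 to 48.4 TPM (-0.86), so its difference reached 2.14 ± 0.09. The exceptions were PLK2, whose response was lower in A-375 than in T84 by -0.43 ± 0.06, and ABHD4, lower by -0.23 ± 0.08 than in T84 and by -0.42 ± 0.08 than in RH30. CCNG1 differed from none of the 3 lines past the threshold, with differences of 0.06, 0.18 and 0.08 (SE 0.08 each). DDB2 did not differ past it from T84 (0.05 ± 0.09) or H1048 (0.16 ± 0.09).

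The other p53 targets were higher in 17 and lower in 4 of 27 in T84, in 18 and 5 of 29 in H1048, and in 17 and 2 of 23 in RH30. Of all genes 50%, 53.8% and 50% were higher and 26.3%, 23.8% and 26.8% lower in these lines. With scaling the other targets split 10 and 7, 16 and 10, and 13 and 5. Their responses in A-375 exceeded those of T84 in 22 genes and fell below in 3, of H1048 in 24 and 2, and of RH30 in 22 and 1, of 30 tested. Of all genes 29.7%, 27.6% and 32% had a higher response in A-375 and 28.6%, 29.4% and 27.5% a lower one. Division genes were lower in 8 and higher in 7 of 16 in T84, in 12 and 3 in H1048 and in 9 and 3 in RH30. With scaling those counts were 9 and 4, 14 and 1, and 13 and 1. ATF4 targets were higher in 3 and lower in 4 of 8 in T84, in 2 and 5 of 9 in H1048 and in 3 and 3 of 7 in RH30.

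AsPC-1 cells received CB-6644 after delivery of the empty vector, RUVBL1 A62T or RUVBL2 dF109. With the empty vector, 21 of 30 genes were higher and 4 lower, beside 47.2% and 17.2% of all genes. The median was 0.58 for the set and 0.19 for all genes, and with scaling 19 were higher and 7 lower (25.5% and 36.5% of all genes). With RUVBL1 A62T, 4 were higher and 0 lower, beside 10.8% and 1.98% of all genes, and with scaling 2 and 1. Leaving out 1 library at a time moved that count between 0 (without A62T CB-6644 replicate 1) and 8 (without the empty vector DMSO library). With RUVBL2 dF109, 10 were higher and 2 lower, beside 29.3% and 4.1%, and with scaling 4 and 8. Leaving out dF109 CB-6644 replicate 1 or replicate 2 left 6 called. The set's medians with these forms were 0.09 and 0.08, beside 0.10 and 0.14 for all genes.

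CDKN1A in AsPC-1 was at 143.6, 148.5 and 163.7 TPM with CB-6644 and the empty vector, at 60.3, 56.0 and 61.7 TPM with RUVBL1 A62T, and at 60.5, 59.9 and 58.7 TPM with RUVBL2 dF109. The single DMSO libraries were at 81.9, 48.5 and 44.5 TPM in the same order. The 3 empty vector libraries were above every other library of AsPC-1 in that experiment. Against the 3 DMSO libraries the log2 fold change of CDKN1A was 1.42 ± 0.16 with the empty vector (adjusted p = 1.29e-05, limma). It was 0.08 ± 0.16 with A62T and 0.09 ± 0.16 with dF109, neither past the threshold. Without the empty vector DMSO library, the highest of the 3 controls, these were 0.34 and 0.35 and passed it (adjusted p = 0.013 and 0.00357, limma). Against the DMSO library of the same vector the values lay closer together, at 0.88 with the empty vector, 0.28 with A62T (adjusted p = 0.162, limma) and 0.41 with dF109.

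With the empty vector AsPC-1 also had higher GADD45A (1.39 ± 0.24), TNFRSF10B (1.24 ± 0.11) and GDF15 (1.14 ± 0.17, from 7.66 to 17.5 TPM). MDM2 was at 10.2 TPM beside 8.71 TPM, not past the threshold (0.22 ± 0.10, adjusted p = 0.067, limma), and it passed without the empty vector DMSO library (0.30, adjusted p = 0.014). With A62T the 4 genes that rose were PLK3 (0.46 ± 0.12), XPC (0.34 ± 0.08), TP53I3 (0.34 ± 0.07) and ABHD4 (0.31 ± 0.08). With dF109 TNFRSF10C (0.65 ± 0.15) and PLK3 (0.55 ± 0.12) changed most. With scaling, ATF4 targets in AsPC-1 were higher in 5 and lower in 0 of 7 with the empty vector. Those counts were 1 and 1 with A62T, and 1 and 4 with dF109. In the same order, 25.5%, 5.31% and 11.8% of all genes were higher with scaling, and 36.5%, 8.53% and 19.8% lower.

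The direct comparison of CB-6644 libraries in AsPC-1 uses no DMSO library, so differences between vectors without the drug are not removed. CDKN1A was already highest in the empty vector among the DMSO libraries, as given above. Empty vector against RUVBL1 A62T gave 21 higher and 4 lower of 30, beside 32.3% and 18.9% of all genes (19 and 5 with scaling). Empty vector against RUVBL2 dF109 gave 18 higher and 4 lower, beside 26.3% and 20.9% (17 and 4 with scaling). CDKN1A differed by 1.34 ± 0.16 and 1.33 ± 0.16, GADD45A by 1.31 ± 0.24 and 1.68 ± 0.24, and TNFRSF10B by 0.97 ± 0.11 and 0.88 ± 0.11. GDF15 differed by 0.73 ± 0.17 and 1.07 ± 0.17. KITLG went the other way, at -0.98 ± 0.07 and -0.99 ± 0.07. MDM2 differed by 0.10 ± 0.10 and 0.04 ± 0.10, neither past the threshold, and its level in AsPC-1 was 10.2 TPM with the empty vector and CB-6644. Both comparisons share the empty vector libraries.

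In T3M-4 the vectors did not order the same way. With the empty vector 11 of 31 genes were higher and 6 lower, beside 19.1% and 15.2% of all genes (12 and 7 with scaling). Without the RUVBL2 dF109 DMSO library 11 were called. With RUVBL1 A62T 18 were higher and 2 lower, beside 45.4% and 4.6%, and with RUVBL2 dF109 15 were higher and 1 lower, beside 34.3% and 3.34%. With scaling these last splits became 5 and 5, and 6 and 4, since scaling lowered the median of all genes by 0.35 and 0.31. Leaving out any 1 CB-6644 library of those vectors left 12 to 13 called for A62T and 9 to 10 for dF109, and leaving out the dF109 DMSO library left 13 for A62T.

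CDKN1A in T3M-4 was at 155.8, 150.2 and 143.4 TPM with the empty vector and CB-6644, at 152.8, 139.0 and 150.3 TPM with A62T, and at 141.1, 141.5 and 140.8 TPM with dF109. The DMSO libraries were at 67.1, 112.5 and 91.4 TPM. Every CB-6644 library was above every DMSO library, and the vectors lay close together (0.75 ± 0.14, 0.73 ± 0.14 and 0.67 ± 0.14 against DMSO). Against the DMSO library of the same vector they were 1.15, 0.39 and 0.62. GDF15 in T3M-4 was at 60.5, 51.5 and 47.8 TPM with the empty vector and CB-6644, and the DMSO library of that vector was at 28.2 TPM. With A62T it was at 143.1, 144.5 and 145.6 TPM beside 99.5 TPM with DMSO, and with dF109 at 111.9, 116.0 and 118.6 TPM beside 59.4 TPM. Each CB-6644 library of GDF15 thus lay above its own vector's DMSO library, while the control levels differed between vectors. Against the 3 DMSO libraries together GDF15 was at -0.06 ± 0.32 with the empty vector, and against its own DMSO library at 0.89.

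TNFRSF10C rose with each T3M-4 vector, by 1.18 ± 0.13, 0.79 ± 0.13 and 0.89 ± 0.13 in the order empty vector, A62T and dF109. FDXR (1.04 ± 0.17) and BTG2 (0.86 ± 0.17) were among the largest rises with the empty vector, and ABHD4 rose with A62T (0.94 ± 0.14) and dF109 (0.70 ± 0.14). MDM2 was at 0.30 ± 0.11 with the empty vector (adjusted p = 0.0551, limma) and rose by 0.51 ± 0.11 with A62T and with dF109. Scaling removed those 2 calls and brought the empty vector value past the threshold (0.20). With scaling, ATF4 targets in T3M-4 were higher in 0 and lower in 7 of 9 with the empty vector. Those counts were 2 and 1 with A62T, and 1 and 2 with dF109. In the same order, 16.5%, 10.3% and 8.59% of all genes were higher with scaling, and 25.1%, 18.6% and 15.9% lower.

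Between T3M-4 vectors under CB-6644, empty vector against RUVBL1 A62T gave 4 higher and 11 lower of 31, beside 9.21% and 41.4% of all genes (10 and 6 with scaling). Without A62T CB-6644 replicate 3, 9 were called. Empty vector against RUVBL2 dF109 gave 2 higher and 9 lower, beside 4.86% and 29.8% (7 and 6 with scaling). Without any 1 of the dF109 CB-6644 libraries 4 were called, and without empty vector CB-6644 replicate 2 or 3, 5 and 6. PLK3 was at 9.61, 7.18 and 5.48 TPM with the empty vector and CB-6644, against 22.3, 20.8 and 21.03 TPM with A62T and 17.6, 17.5 and 18.6 TPM with dF109. The differences of PLK3 were -1.44 ± 0.36 and -1.19 ± 0.36. FDXR was the reverse, higher with the empty vector by 1.21 ± 0.17 than with A62T and by 0.88 ± 0.17 than with dF109. CDKN1A differed by 0.02 ± 0.14 and 0.08 ± 0.14, not past the threshold as deposited, and by 0.31 and 0.33, past it, with scaling. Differences between vectors without the drug are not removed in these comparisons.

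**Figure D4:**
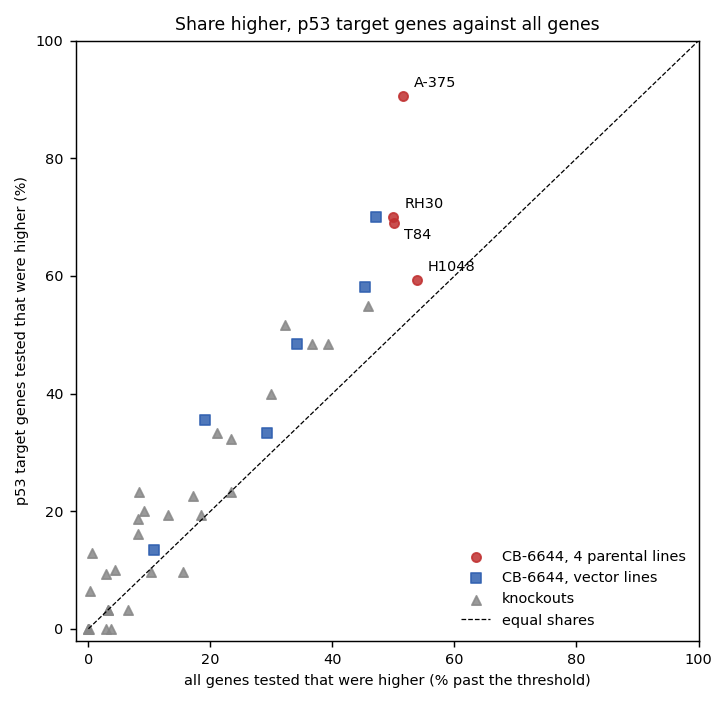
Percent of p53 target genes tested that were higher (vertical axis) against the percent of all genes tested that were higher (horizontal axis), 1 point for each comparison of a treated or knockout group with its control. The dashed line marks equal shares. A-375 lies highest, with 29 of 32 target genes beside 51.5% of all genes, and most knockouts (triangles) lie near the line.

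In the knockouts of RUVBL1 and RUVBL2, the mRNA of the targeted gene changed by -1.87 to -1.14 on the log2 scale for RUVBL1 and by -1.76 to -1.24 for RUVBL2, and protein was not measured here. For sgRUVBL1 in AsPC-1, 12 of 30 genes were higher and 9 lower in experiment 2, beside 30% and 25.8% of all genes. In experiment 3, 15 of 31 were higher and 5 lower, beside 36.6% and 15.2% (13 and 9 with scaling). In T3M-4, 17 of 31 were higher and 6 lower, beside 45.9% and 14.6% (12 and 9 with scaling). In BxPC-3, 7 of 30 were higher and 3 lower, beside 8.29% and 7.67%, and without sgRUVBL1 replicate 1, sgRUVBL1 replicate 2 or sgRosa replicate 3, 6 were called. In CFPAC-1, 1 of 32 was higher and 9 lower, beside 6.54% and 37.3% (6 and 4 with scaling). The medians of the set were 0.11, 0.22, 0.27, 0.10 and -0.14 in that order, beside 0.02, 0.16, 0.25, 0.01 and -0.20 for all genes.

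With sgRUVBL1, CDKN1A, PLK3, GDF15, TRIAP1, TIGAR and ABHD4 were each higher in 4 of the 5 comparisons. With scaling CDKN1A and ABHD4 were higher in 5 and TRIAP1 in 3. CDKN1A rose by 1.08 ± 0.09 in AsPC-1 experiment 2, 0.75 ± 0.12 in experiment 3, 0.88 ± 0.07 in T3M-4 and 0.63 ± 0.10 in BxPC-3, and in CFPAC-1 it was at 58.0 TPM beside 53.5 TPM (0.14 ± 0.12, and 0.35 with scaling, adjusted p = 0.0382, limma). GDF15 rose by 2.08 ± 0.15, 1.05 ± 0.21, 0.99 ± 0.11 and 1.11 ± 0.15, and in CFPAC-1 it was at 0.12 ± 0.24. In CFPAC-1 without sgRosa replicate 2, whose GDF15 level stood apart, GDF15 was higher with sgRUVBL1 (0.47, adjusted p = 0.00916, limma) and with sgRUVBL2 (0.70, adjusted p = 0.0126, limma). PLK3 rose most in T3M-4, from 9.98 to 41.3 TPM (1.97 ± 0.18). TP53INP1 there rose from 3.32 to 12.5 TPM (1.68 ± 0.16). CMBL, a hydrolase, was lower in 5 of 5 and DDB2 in 4 of 5, counts that scaling changed to 4 and 5. In CFPAC-1 the largest change was that of POLH, which fell from 18.3 to 7.99 TPM (-1.11 ± 0.13), and MDM2 was lower there (-0.33 ± 0.07, and -0.12 with scaling, where it lost the call). MDM2 was higher in T3M-4 (0.38 ± 0.10, and not past the threshold with scaling) and not called in the other 3 comparisons. Of those, AsPC-1 experiment 3 was at 0.21 (adjusted p = 0.0503, limma) and passed without sgRosa replicate 3 (0.26, adjusted p = 0.033).

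For sgRUVBL2, 16 genes were higher and 4 lower of 31 in AsPC-1, beside 32.2% and 11% of all genes (9 and 5 with scaling). In T3M-4, 15 were higher and 5 lower of 31, beside 39.3% and 15.2% (13 and 9 with scaling). In BxPC-3, 3 of 30 were higher and 2 lower, beside 4.27% and 5.48% (6 and 2 with scaling), and without sgRUVBL2 replicate 2, 8 were called. In CFPAC-1, 0 of 32 were higher and 1 lower by limma, beside 2.83% and 9.26% (2 and 1 with scaling). There 5 genes of the set had an unadjusted p under 0.05, and without sgRosa replicate 2 or replicate 3, 2 were called. CDKN1A rose by 1.11 ± 0.12 in AsPC-1, 0.71 ± 0.07 in T3M-4 and 0.46 ± 0.10 in BxPC-3. GDF15 rose by 0.73 ± 0.21, 0.95 ± 0.10 and 0.97 ± 0.17. In fits of only the groups compared, both genes lost the call in BxPC-3. MDM2 was higher in AsPC-1 (0.28 ± 0.09) and in T3M-4 (0.28 ± 0.09), and both calls ended with scaling (0.12 and 0.06). The first also ended without sgRosa replicate 2 and the second without sgRUVBL2 replicate 2. In BxPC-3 MDM2 was at 0.24 ± 0.11 and past the threshold with scaling (0.30) or without sgRUVBL2 replicate 3 (0.38), and in CFPAC-1 it was at -0.24 ± 0.09, not called. POLH fell in CFPAC-1 from 18.3 to 8.35 TPM (-1.03 ± 0.16), where CDKN1A was at 0.43 ± 0.14 (adjusted p = 0.0617, limma). It passed the threshold at 0.53 with scaling (adjusted p = 0.0383, limma) and at 0.53 without sgRosa replicate 3 (adjusted p = 0.0279, limma). The sgRUVBL1 and sgRUVBL2 groups of an experiment share their sgRosa libraries.

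**Figure D5:**
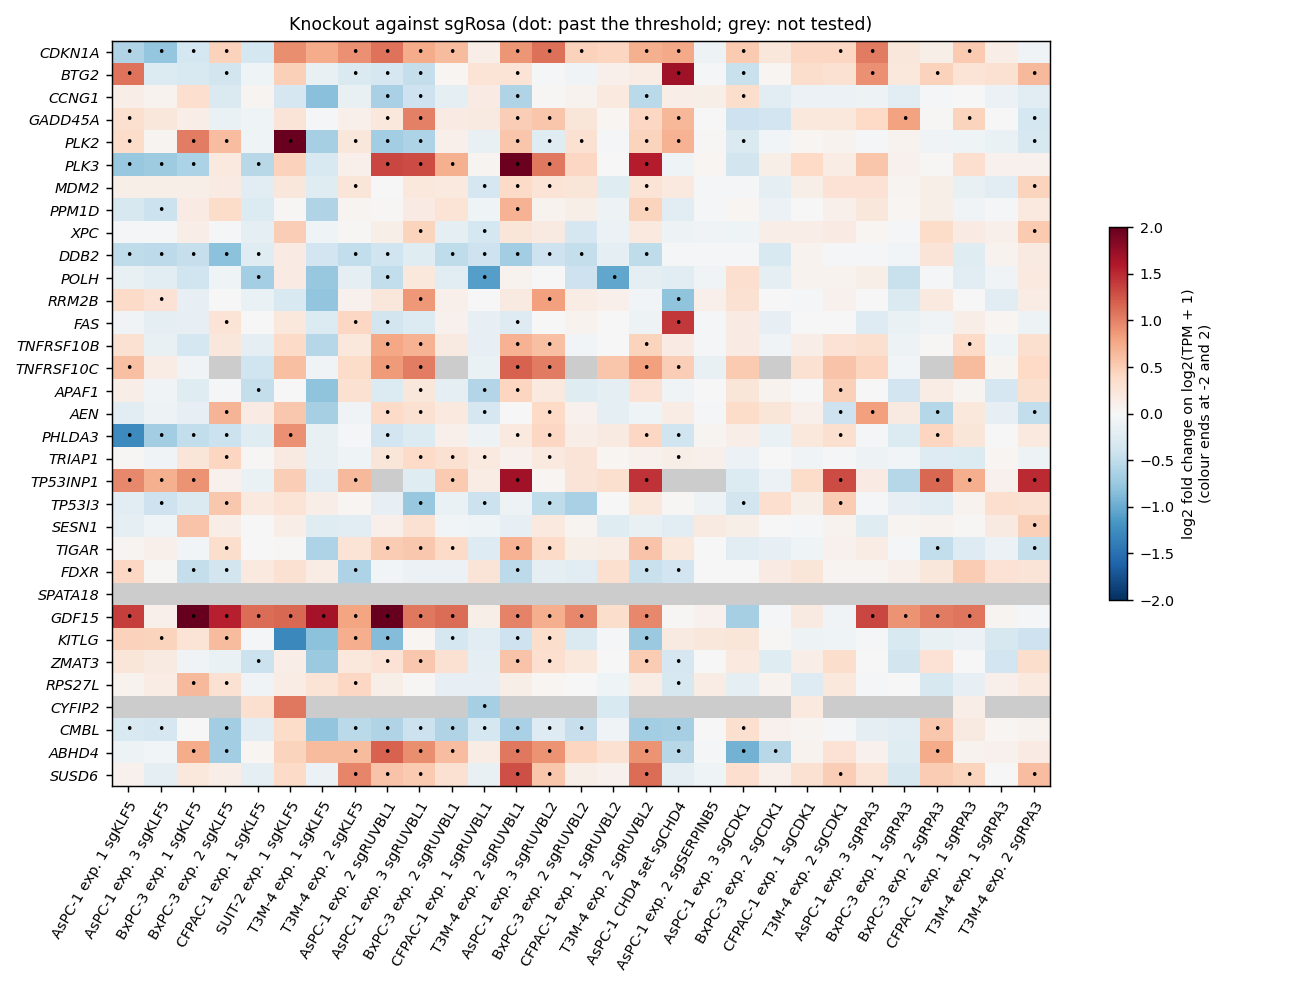
Log2 fold change of each knockout group over sgRosa on log2(TPM + 1) for the 33 p53 target genes (rows), ordered by the targeted gene (columns). Red is higher, blue is lower, dots mark genes past the threshold and grey marks genes not tested. GDF15 is red in most sgKLF5 columns, with values from 0.10 to 2.53, and PLK3 reaches 1.97 in T3M-4 with sgRUVBL1.

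The libraries labelled sgKLF5 gave 8 comparisons in 5 lines. In AsPC-1, 7 genes were higher and 5 lower of 31 in experiment 1, beside 17.1% and 8.81% of all genes (4 and 7 with scaling), and without sgRosa replicate 2, 6 were called. In AsPC-1 experiment 3, 3 were higher and 7 lower of 31, beside 15.4% and 12.3%. In SUIT-2, 3 were higher and 0 lower of 32, beside 2.94% and 1% (4 and 0 with scaling), and without sgRosa replicate 1, 5 were called. In CFPAC-1, 1 was higher and 5 lower of 32, beside 3.26% and 13% (1 and 1 with scaling), and without any 1 of the 3 sgKLF5 libraries, or without sgRosa replicate 1 or 3, 2 were called.

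In T3M-4 experiment 1, 1 gene was higher and 0 lower of 31 with sgKLF5, beside 3.26% and 2.46% of all genes (3 and 1 with scaling). Without sgKLF5 replicate 2, 6 were called, and without sgRosa replicate 2, 0. In T3M-4 experiment 2, 10 were higher and 4 lower, beside 23.4% and 11.2% (7 and 8 with scaling). In BxPC-3 experiment 1, 5 were higher and 5 lower of 31, beside 8.09% and 8.1% (7 and 3 with scaling), and without either sgRosa library 4 were called. In BxPC-3 experiment 2, 10 of 30 were higher and 6 lower, beside 21% and 13.6%, with 10 and 6 again after scaling. The set's medians over the 8 comparisons lay between -0.25 and 0.29, and those of all genes between -0.22 and 0.18.

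GDF15 was higher in 7 of the 8 comparisons with sgKLF5. The largest rise was in BxPC-3 experiment 1, from 43.7 to 258 TPM (2.53 ± 0.11, adjusted p = 6.08e-07, limma), and in experiment 2 it was 1.56 ± 0.15. GDF15 rose by 1.66 ± 0.18 and 0.79 ± 0.10 in T3M-4, by 1.39 ± 0.22 in AsPC-1 experiment 1, by 1.14 ± 0.16 in SUIT-2 and by 1.11 ± 0.26 in CFPAC-1. In AsPC-1 experiment 3 GDF15 was at 5.19 TPM beside 4.99 TPM (0.10 ± 0.21). In CFPAC-1 it was at 1.46 without sgRosa replicate 2, whose GDF15 level of 95.4 TPM stood far above the 33.6 to 36.3 TPM of the other control libraries.

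CDKN1A had no common direction with sgKLF5. It was lower in AsPC-1 by -0.60 ± 0.09 in experiment 1 and -0.77 ± 0.12 in experiment 3, and in BxPC-3 experiment 1 by -0.35 ± 0.07, a call lost without either sgRosa library and with scaling (-0.33, adjusted p = 0.0665, limma). In CFPAC-1 it was at -0.34 ± 0.13 (adjusted p = 0.0737, limma), and lower without sgRosa replicate 2 (-0.49, adjusted p = 0.00127, limma). It was higher in T3M-4 experiment 2 by 0.92 ± 0.07 and in BxPC-3 experiment 2 by 0.46 ± 0.10, so the experiments of BxPC-3 differed in sign as deposited. In SUIT-2 CDKN1A was at 43.5 TPM beside 23.2 TPM (0.92 ± 0.26, adjusted p = 0.0976, limma), and it passed the threshold with scaling (0.68, adjusted p = 0.0469). In T3M-4 experiment 1 it was at 0.74 ± 0.22, not past the threshold, and past it at 0.90 without sgKLF5 replicate 2 and at 0.99 with scaling (adjusted p = 0.00901, limma). Without SUIT-2 sgRosa replicate 1, which was at 12.7 TPM, CDKN1A was at 0.67 with an adjusted p of 0.0282 (limma). PLK2 was higher in 5 of the 8 comparisons, most in SUIT-2 (1.98 ± 0.29), and DDB2 was lower in 6. With scaling PLK2 lost the call in T3M-4 experiment 2 (0.10) and DDB2 in CFPAC-1 (-0.12). MDM2 was called in 1 of the 8, T3M-4 experiment 2 (0.24 ± 0.09, adjusted p = 0.0407, limma), and lost the call with scaling and without any of 6 single libraries.

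Knockout of the essential genes RPA3, which encodes a subunit of the single-stranded DNA binding complex RPA, and CDK1, the mitotic kinase, gave 10 comparisons. With sgRPA3 in AsPC-1, 4 genes were higher and 0 lower of 31, beside 0.638% and 0.0164% of all genes. Without sgRPA3 replicate 1, 0 were called, and without replicate 2, 2 were. Those 4 genes were GDF15 (1.33 ± 0.26), CDKN1A (1.03 ± 0.15, from 25.7 to 53.5 TPM), BTG2 (0.92 ± 0.14) and AEN (0.82 ± 0.15). In CFPAC-1, 6 of 32 were higher and 0 lower, beside 8.17% and 3.39% (3 and 2 with scaling). None was called there without either sgRPA3 library, and 3 were called without sgRosa replicate 1 or 4. In BxPC-3 experiment 1, 2 of 31 were higher and 0 lower, beside 0.29% and 0.0161% (1 and 0 with scaling). These were GDF15 (0.89 ± 0.13) and GADD45A (0.80 ± 0.10), and leaving out 1 library left 0 or 1.

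In BxPC-3 experiment 2, 6 of 30 genes were higher with sgRPA3 and 2 lower, beside 9.12% and 11.6% of all genes, and without sgRPA3 replicate 1 or 2, 2 and 4 were called. In T3M-4 experiment 2, 6 of 31 were higher and 4 lower, beside 18.4% and 6.2% (5 and 7 with scaling), and without sgRPA3 replicate 1 or 2, 5 and 4 were called. TP53INP1 led both, at 1.16 ± 0.20 and 1.496 ± 0.18. In T3M-4 experiment 1, 0 of 31 were higher and 0 lower by limma, beside 0% and 0% of all genes. At an unadjusted p under 0.05 there were 0 of the set and 189 of all genes. MDM2 was higher in T3M-4 experiment 2 (0.45 ± 0.11), where CDKN1A was at 83.3 TPM beside 87.8 TPM (-0.07 ± 0.08). The MDM2 call was lost without sgRPA3 replicate 2 (0.29, adjusted p = 0.162, limma) and in the fit of only the groups compared (adjusted p = 0.102, limma), and with scaling CDKN1A was lower there (-0.26, adjusted p = 0.0295, limma). In the other 5 comparisons MDM2 was not called. Across the 6 sgRPA3 comparisons GDF15 was higher in 4, BTG2 and TP53INP1 in 3 each and CDKN1A in 2. With scaling GDF15 lost the call in BxPC-3 experiment 1 and CDKN1A in CFPAC-1.

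With sgCDK1, 3 genes were higher and 4 lower of 31 in AsPC-1, beside 10.3% and 6.44% of all genes. Without either sgCDK1 library 1 was called, and without sgRosa replicate 4, 4. In T3M-4, 6 of 31 were higher and 1 lower, beside 13% and 3.85% (1 and 2 with scaling), and without either sgCDK1 library 2 were called. In BxPC-3, 0 of 30 were higher and 1, ABHD4, was lower, beside 3.71% and 2.12%. ABHD4 lost the call when either sgCDK1 library or sgRosa replicate 3 or 4 was left out, and 3 genes had an unadjusted p under 0.05. In CFPAC-1, 0 of 32 were higher and 0 lower, beside 0% and 0% by limma, with 4 of the set and 1477 of all genes at an unadjusted p under 0.05. CDKN1A was higher in AsPC-1 (0.53 ± 0.15) and T3M-4 (0.41 ± 0.08), calls lost without either sgCDK1 library in AsPC-1 and without replicate 1 in T3M-4, and at 0.41 ± 0.14 in CFPAC-1 (adjusted p = 0.354, limma). With scaling the T3M-4 call of CDKN1A was also lost (0.24, adjusted p = 0.0586, limma). MDM2 lay between -0.20 and 0.29 and GDF15 between -0.66 and 0.18 in the 4 sgCDK1 comparisons, none of them called. Without sgRosa replicate 3, MDM2 was higher in T3M-4 (0.36), and without sgRosa replicate 1, GDF15 was lower in AsPC-1 (-0.82).

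The last knockouts were made in AsPC-1 alone. With sgSERPINB5, which targets a KLF5 reporter gene, 0 of 30 were higher and 0 lower by limma, beside 0.0172% and 0.0172% of all genes. At an unadjusted p under 0.05 there were 1 of the set and 802 of all genes. CDKN1A was at -0.10 ± 0.09, MDM2 at -0.03 ± 0.10 and GDF15 at 0.09 ± 0.15. The libraries labelled sgCHD4, for a remodelling ATPase, gave 7 higher and 7 lower of 30, beside 23.3% and 26.7% of all genes. BTG2 rose there from 15.6 to 52.2 TPM (1.70 ± 0.13), FAS from 8.68 to 24.7 TPM (1.41 ± 0.10) and CDKN1A from 18.5 to 31.8 TPM (0.75 ± 0.07). RRM2B fell from 16.7 to 9.17 TPM (-0.80 ± 0.11) and CMBL from 69.0 to 43.3 TPM (-0.66 ± 0.05). MDM2 (0.19 ± 0.09) and GDF15 (0.03 ± 0.14) were not called.

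Over the 39 comparisons with a control, 11 tests of a set member had a control mean under the minimum of 1 TPM and so entered through the other libraries of the fit. All 11 were of TNFRSF10C or TP53INP1, and 6 of them were called higher. They lie in 10 comparisons, among them TNFRSF10C in H1048 and RH30 and TP53INP1 in AsPC-1 experiment 1, and none lies in A-375.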

How the data were processed

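RNA was extracted with TRIzol and sequenced as TruSeq libraries. The authors pseudoaligned reads with kallisto to hg38 transcripts, summed them to genes with tximport and removed transcripts of low abundance at a limit not given in the sources used here. The deposited values are TPM, and each library sums to 1e+06, so depth per library is unknown and no counting interval could be given. The authors left out 1 sgRUVBL1 library of T3M-4. All columns were matched to a sample (0 were not).

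TPM were tested as log2(TPM + 1) with limma 3.58.1 in R 4.3.3 (trend and moderated variances), and a gene was tested where it averaged 1 TPM or more over the libraries of a fit. A fit held all groups of a line and experiment, or the 4 parental lines together, in which the minimum was applied per line. For differences between the parental lines the minimum was applied over all libraries of the fit. Fold changes on this scale understate changes of low genes. P-values were adjusted by Benjamini-Hochberg over all genes tested, with a threshold of 0.05. The 3 DMSO libraries of AsPC-1 and of T3M-4, 1 per vector, were pooled as controls.

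The 33 genes and the lists of other p53 targets, division genes and ATF4 targets were chosen with earlier results of these data known. By rule the genes to name were CDKN1A, MDM2 and GDF15, all 33 genes in A-375, and elsewhere up to 4 called members with the largest change, and not all of these are printed. Further genes set side by side across lines or guides were chosen after their values were seen. Alternatives were a pseudocount of 0.1, no minimum, a minimum of 5 TPM, median-of-ratios scaling, a fit of only the groups compared, a replicate block, the DMSO library of the same vector, and leaving out each library. The procedure was tested on simulated data. Promoter sequences and positions are from RefSeq on GRCh38.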

Additional observations from a re-analysis of the deposited data

Results flagged for a closer look

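Groups of 4 to 10 libraries were searched for a library far from the rest in the level of CDKN1A, MDM2 or GDF15 and in the median of the 33 genes relative to all genes. Of 120 such searches, each of a single measure in a single group, 8 marked a library, where chance marks about 1 in 20. Searches of the same group share its libraries, so they are not independent.

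CDKN1A was at 21.6 TPM in AsPC-1 experiment 2 sgSERPINB5 replicate 4, beside 26.6 to 27.4 TPM in the others, and at 12.7 TPM in SUIT-2 sgRosa replicate 1, beside 26.1 to 27.7 TPM. In T3M-4 experiment 1, sgKLF5 replicate 2 was low for CDKN1A (135 TPM, beside 210 to 223 TPM) and for MDM2 (20.4 TPM, beside 36.8 to 40.0 TPM). The median of all genes, relative to the control mean, was also low in that library, at -0.82 beside -0.14 to 0.02 on the log2 scale. In SUIT-2 sgRosa replicate 1 it was -0.49 beside 0.12 to 0.21. These 2 libraries were thus shifted as a whole and not in single genes alone. GDF15 was at 95.4 TPM in CFPAC-1 sgRosa replicate 2, beside 33.6 to 36.3 TPM. MDM2 in H1048 CB-6644 replicate 3 was at 76.9 TPM, beside 72.7 to 73.0 TPM. The median of the set relative to all genes was 0.0616 on the log2 scale in AsPC-1 sgCHD4 replicate 4 and 0.0401 in T3M-4 experiment 2 sgRosa replicate 4, each above the other libraries of its group.

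The responses of CDKN1A, MDM2 and GDF15 to CB-6644, the 3 genes searched here, each differed between A-375 and the other lines by the interaction test, as did those of most of the set. A-375 exceeded T84 by 1.21, 1.31 and 4.03 on the log2 scale, H1048 by 0.45, 1.503 and 4.07, and RH30 by 1.26, 1.24 and 2.87, in that order of genes. What made these lines differ was not tested.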

How the results depend on the processing

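In A-375, T84, H1048 and RH30, and in the differences between them, the number of p53 target genes called stayed within 1.5 times its reported value under every alternative and with each library left out. Over all comparisons this held in 243 of 273 fits under alternatives and in 279 of 339 fits with 1 library left out. Of the log2 fold changes of CDKN1A, MDM2 and GDF15 under alternatives, 770 kept direction and side of the threshold, 29 lost the call, 15 gained it and 2 reversed. These were GDF15 in T3M-4 with the empty vector, at 0.89 against its own DMSO library, and MDM2 in RH30, at -0.14 with scaling.

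With median-of-ratios scaling the members called became 2 for CFPAC-1 sgKLF5, 3 for CFPAC-1 sgRUVBL2, 4 for T3M-4 experiment 1 sgKLF5, 3 for T3M-4 sgCDK1, 1 for BxPC-3 experiment 1 sgRPA3, 8 for BxPC-3 sgRUVBL2, 10 for T3M-4 RUVBL1 A62T and 10 for T3M-4 RUVBL2 dF109. In fits of only the groups compared they became 15 for AsPC-1 sgCDK1, 7 for AsPC-1 sgRPA3, 1 for CFPAC-1 sgKLF5, 1 for T3M-4 experiment 2 sgRPA3, 5 for AsPC-1 RUVBL2 dF109 and 8 for T3M-4 with the empty vector, and 0 for CFPAC-1 sgRPA3 and sgRUVBL2, T3M-4 sgCDK1, BxPC-3 sgCDK1 and sgRUVBL2, and AsPC-1 RUVBL1 A62T. Without a minimum level they became 3 for CFPAC-1 sgRPA3, 2 for T3M-4 experiment 1 sgKLF5, 0 for BxPC-3 sgCDK1 and 2 for AsPC-1 RUVBL1 A62T. Against the DMSO library of the same vector they became 0 for AsPC-1 RUVBL1 A62T and 2 for T3M-4 RUVBL1 A62T. The cause was not tested.

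Same-numbered libraries did not deviate together in every pair of any comparison. With so few pairs this cannot exclude pairing, so the unpaired fits are reported and the replicate block is an alternative. With the replicate block 3 members were called for AsPC-1 sgCDK1, 3 for CFPAC-1 sgRPA3, 10 for T3M-4 experiment 1 sgKLF5 and 0 for BxPC-3 sgCDK1, and 30 in A-375. AsPC-1 and T3M-4 could not be blocked against DMSO, with 1 DMSO library a vector.

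With each library left out in turn the lowest and highest numbers called were 6 and 13 for AsPC-1 experiment 1 sgKLF5, 1 and 6 for AsPC-1 sgCDK1, 0 and 4 for AsPC-1 sgRPA3, 2 and 5 for SUIT-2 sgKLF5, 2 and 6 for CFPAC-1 sgKLF5, 0 and 6 for CFPAC-1 sgRPA3, and 1 and 2 for CFPAC-1 sgRUVBL2. In T3M-4 they were 0 and 6 for experiment 1 sgKLF5, 2 and 10 for sgCDK1, and 4 and 13 for experiment 2 sgRPA3. In BxPC-3 they were 4 and 10 for sgKLF5 and 0 and 1 for sgRPA3 in experiment 1, and 0 and 1 for sgCDK1, 2 and 10 for sgRPA3, 6 and 10 for sgRUVBL1, and 4 and 8 for sgRUVBL2 in experiment 2. With CB-6644 they were 0 and 8 for AsPC-1 RUVBL1 A62T, 6 and 16 for AsPC-1 RUVBL2 dF109, and in T3M-4 11 and 23 for the empty vector, 12 and 22 for RUVBL1 A62T, 9 and 19 for RUVBL2 dF109, 9 and 14 for the empty vector against A62T, and 4 and 11 against dF109.

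TPM are shares of RNA, so depth, counting error and total RNA per cell cannot be read from them. Groups of 2 knockout libraries and single DMSO libraries limit the precision of those comparisons. The median of the 33 genes changed sign under 21 alternatives, all in comparisons where it was at most 0.27 as reported.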
